A study of Mus musculus with 10 samples.

Results

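The rod transducin subunit genes Gnat1, Gnb1 and Gngt1 were followed through every CUT&Tag peak that the deposited annotation assigned to them. The members were 15 of 108253 peaks and 3 of 25400 gene symbols. The paper gives the same number for its H3K18La peaks merged over the ages of developing retina. If these are those regions, they were not called in the explants, and H3K27Ac was read only at H3K18La peaks. Gnat1 and Gngt1 each held 1 peak, which lay at the promoter, and Gnb1 held 13 peaks, of which 2 were promoter peaks and 11 lay elsewhere. A peak counted as a promoter peak where the authors' annotation placed it within -1000 to 500 bp of a transcript start. All 15 peaks had a mean of at least 1 RPKM over the 10 libraries, and none was left out.

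Transducin is the G protein of photoreceptors. In rods, light-activated opsin makes the α-subunit encoded by Gnat1 exchange GDP for GTP, upon which it leaves the βγ dimer encoded by Gnb1 and Gngt1 and switches on the cGMP phosphodiesterase. Gnat1 and Gngt1 are rod genes, whereas Gnb1 encodes a β-subunit that many cell types also use with other α- and γ-subunits. Acetylation of histone H3 at lysine 27 (H3K27Ac) is known as a mark of active promoters and enhancers, and lactylation at lysine 18 (H3K18La) is an acyl mark that draws on lactate, the product of glycolysis.

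Retinas of wild-type C57BL/6J mice at postnatal day 28 were cultured as explants for 48 hours in Neurobasal-A medium with 5 mM or 25 mM glucose. H3K18La was profiled in 3 libraries and H3K27Ac in 2 libraries per glucose level, with 500000 dissociated cells in each assay. The labels tell no batches apart. The study asked whether glucose supply alters promoter occupancy of the marks. The libraries are called biological replicates, but which animals or cultures they came from is not given, so p-values measure the spread between these libraries. The second mark is called H3K27Ac as in the sample titles, column names and the study's methods, whereas the protocol text in the labels names H3K9me3 in its place, and also an MNase fusion in place of a transposase. This conflict was not resolved and bears on every H3K27Ac value.

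CUT&Tag tethers a transposase to an antibody, so that sequenced fragments lie where the mark lies. Levels are RPKM, reads scaled to the length of the peak in kilobases and to the size of the library. The denominators recovered from the values ranged from 1358008 to 7424470 reads. Reads in peaks moved with glucose in both marks, from a median of 11.9% of the denominator at 5 mM to between 31.2% and 35.0% at 25 mM for H3K18La, and from 21.1% and 31.5% to 69.5% and 56.5% for H3K27Ac. The median log2 change of all peaks was 0.76 for H3K18La and 0.58 for H3K27Ac, and every change below is to be read against it. Whether the gain in peaks arose in the tissue or in the assay was not tested.

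The explants were whole retina, in which fewer cells of a type and less signal per cell cannot be told apart. All 5 rod markers held a promoter peak, and their summed level was 8.70 to 12.1 RPKM at 5 mM and 42.4 to 100.0 at 25 mM for H3K18La, and 34.7 to 64.1 and 154.5 to 277.5 for H3K27Ac. The 4 cone markers with a promoter peak summed to 3.29 to 7.98 RPKM at 5 mM and 8.32 to 10.5 at 25 mM for H3K18La. The 4 Müller glia markers with a promoter peak summed to 2.57 to 5.65 and 6.77 to 11.0 RPKM. The pigment epithelium was removed with the sclera. Of its 5 markers, 2 had a promoter peak, with sums of 2.17 to 10.6 and 11.8 to 19.0 RPKM, while Rpe65, Ttr and Lrat had none. Most of these sums came from Rgr, with means of 4.76 and 13.0 RPKM and at most 6 reads per library at 5 mM. Best1 had means of 0.734 and 1.77 RPKM. Of the markers with a promoter peak, the numbers that rose in H3K18La and in H3K27Ac were 5 and 5 of 5 for rods, 0 and 2 of 4 for cones, 0 and 3 of 4 for bipolar cells, 0 and 2 of 4 for Müller glia, 1 and 1 of 3 for amacrine cells, 0 and 1 of 3 for ganglion cells, 0 and 0 of 1 for microglia, 1 and 0 of 2 for pigment epithelium and 0 and 0 of 3 for endothelium. Over all genes with a promoter peak 20.1% rose in H3K18La and 42.5% in H3K27Ac. No marker with a promoter peak was at 0 in all libraries of a group. The part of cell makeup in the results was not tested.

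The sequences before the starts of the members are shown because these promoters differ sharply in base composition. They were read from GRCm38.p6 on the plus strand, on which Gnb1 and Gngt1 lie. Capitals mark matches, on either strand, to TAATCC (the core of sites bound by the photoreceptor homeodomain factor CRX), TGCTGA (part of the site of the rod factor NRL), GGGCGG (the GC box of SP factors) or CACCC (bound by KLF factors). RefSeq promoter windows matched 2 of the 3 members, Gnb1 and Gngt1.
Gnb1 5′ start, chr4:155491111-155491299: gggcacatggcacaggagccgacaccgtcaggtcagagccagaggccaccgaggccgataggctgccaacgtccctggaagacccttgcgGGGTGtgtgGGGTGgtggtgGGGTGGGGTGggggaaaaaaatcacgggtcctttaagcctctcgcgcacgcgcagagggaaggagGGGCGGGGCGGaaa
Gnb1 internal start, chr4:155522212-155522461: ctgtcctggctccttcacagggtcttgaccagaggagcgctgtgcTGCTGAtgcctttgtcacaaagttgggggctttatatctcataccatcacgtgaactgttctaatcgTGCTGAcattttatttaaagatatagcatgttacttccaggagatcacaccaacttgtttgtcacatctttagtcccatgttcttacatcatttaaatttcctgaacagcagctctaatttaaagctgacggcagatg
Gngt1 start, chr6:3993720-3993745: agcaatttggGGATTAataggcagtc

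The 189 bases printed for the 5′ start of Gnb1 begin 250 bases before that start and end short of it, where a RefSeq exon begins, so the bases next to the start are not described. They held 66.1% G and C, 13 CpG, 2 GC boxes, which overlap by a base, and 4 CACCC matches, and neither TAATCC nor TGCTGA. The 250 bases before its internal start held 42.8% G and C, 4 CpG and 2 TGCTGA matches, and none of the other motifs. The 250 bases before the annotated Gngt1 start held 31.2% G and C and 1 TAATCC match, which ended 57 bases before that start. RefSeq places a Gngt1 exon over this stretch, so it need not be promoter sequence, and the match may be transcribed. Among 250-base windows before the starts of 32851 RefSeq promoters, 6.25% held TAATCC, 16.1% TGCTGA, 32.7% GGGCGG and 52.0% CACCC. A match describes letters and not a bound site.

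Base composition over whole peaks set the members apart in the same way. The Gnb1 5′ promoter peak had 75.2% G and C, above 99.7% of 17144 promoter peaks, and the Gngt1 promoter peak had 39.6%, above 0.332% of them. The Gnb1 internal promoter peak had 42.9% G and C and the Gnat1 promoter peak 51.8%. The ratio of observed to expected CpG was 0.921 at the Gnb1 5′ promoter peak and 0.175 to 0.252 at the others, against a median of 0.596 over promoter peaks.

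Gnat1, encoding the rod transducin α-subunit, gained the most signal of the 3 promoters in H3K18La. Its peak of 2043 bp lay at chr9:107679099-107681141 (GRCm38) over the gene's start on the minus strand, with 270 bases in Gnat1 exons and 1060 in an exon of A930036K24Rik, a gene model awaiting experimental proof, on the plus strand, and CUT&Tag reads carry no strand. The H3K18La level was 0.696, 1.04 and 0.360 RPKM in the 5 mM libraries and 12.7, 5.78 and 3.63 RPKM in the 25 mM libraries. The groups did not overlap, and replicate 1 at 25 mM stood above the other replicates. The mean rose from 0.698 ± 0.339 to 7.37 ± 4.74 RPKM (SD, n = 3 each), a 10.6-fold ratio. On the log2(RPKM + 0.5) scale, which understates the change of weak peaks, the change was 2.59 with a standard error of 0.48 (limma, adjusted p = 0.00195), larger than that of 98.9% of all peaks. Without replicate 1 at 25 mM it was 2.13 (limma, adjusted p = 0.0214).

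The Gnat1 rise rested on few H3K18La reads. The 5 mM libraries held 3, 11 and 1 reads and the 25 mM libraries 51, 48 and 22, and the ratio of the pooled levels was 7.76 (95% exact interval 4.52 to 14.3, which covers counting error only). For H3K27Ac the Gnat1 level was 5.32 and 9.06 RPKM at 5 mM and 51.2 and 31.3 RPKM at 25 mM. The libraries again fell into separate ranges. The mean rose from 7.19 ± 2.65 to 41.3 ± 14.1 RPKM (SD, n = 2 each), a 5.74-fold ratio and a log2 change of 2.44 with a standard error of 0.48 (limma, adjusted p = 0.0115). At 25 mM the H3K27Ac level at Gnat1 exceeded that of 97.9% of promoter peaks. With every library scaled to its own reads in peaks, the log2 changes were 1.48 for H3K18La (limma, adjusted p = 0.400) and 1.21 for H3K27Ac (limma, adjusted p = 0.307), and no peak of the table passed in limma for either mark, with 10505 and 15698 peaks at an unadjusted p under 0.05. With libraries centred on the median peak, the change at Gnat1 was 1.95 for H3K18La (limma, adjusted p = 0.0292) and 2.01 for H3K27Ac (limma, adjusted p = 0.0204). Under that centring Gnat1 was the 1 member that passed for H3K18La, and 9 members passed for H3K27Ac.

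**Figure D1:**
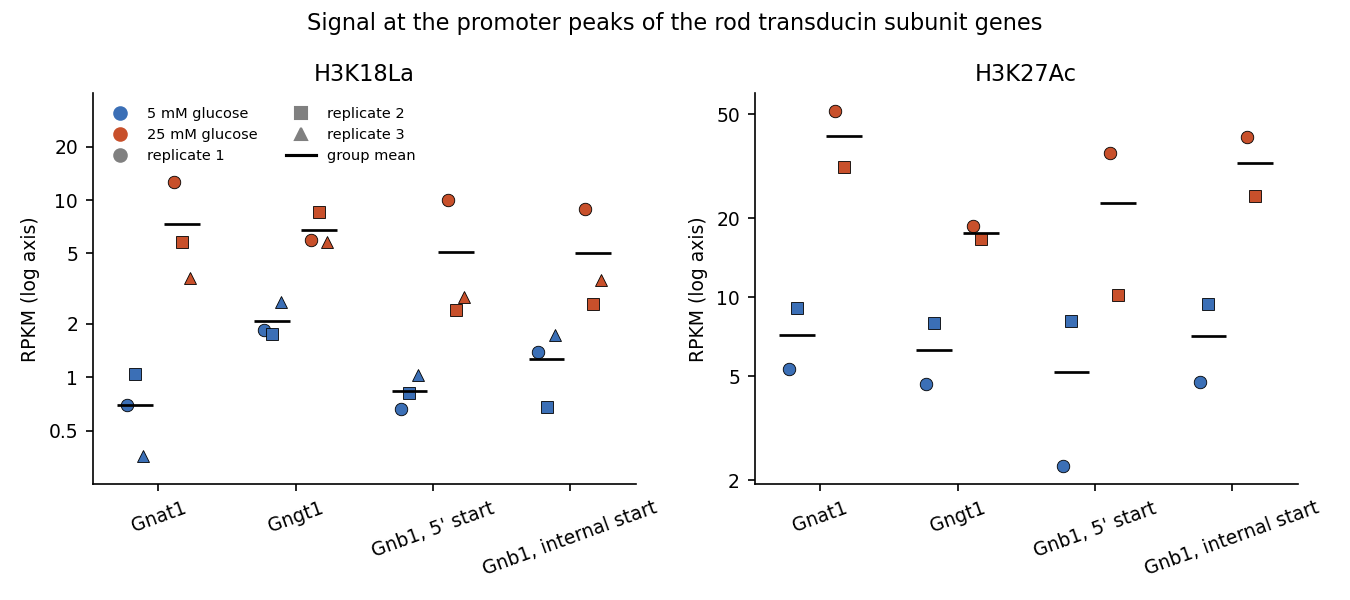
RPKM (log axis) at the 4 promoter peaks of Gnat1, Gngt1 and Gnb1 in each library, blue at 5 mM and orange at 25 mM glucose, with 1 symbol per replicate and a bar at the group mean. For each mark and each peak the 25 mM libraries sit above the 5 mM libraries, and 25 mM replicate 1 is the highest at Gnat1 and Gnb1 in both marks, reaching 51.2 RPKM for H3K27Ac at Gnat1.

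Gngt1, encoding the rod transducin γ-subunit, had the highest H3K18La level of the members' promoter peaks at 5 mM. Its H3K18La gain was close to that at the Gnb1 starts, and their order turned with the libraries used: without replicate 1 at 25 mM the log2 change was 1.56 at Gngt1 and 1.23 and 1.06 at the Gnb1 5′ and internal starts. Its peak of 3060 bp lay at chr6:3991251-3994310, reached 389 bases of Gngt1 exons and extended upstream of the start. The H3K18La level was 1.86, 1.77 and 2.65 RPKM at 5 mM and 5.99, 8.52 and 5.84 RPKM at 25 mM. The groups were separate, and here replicate 2 and not replicate 1 was highest at 25 mM. The mean rose 3.24-fold, from 2.09 ± 0.484 to 6.78 ± 1.51 RPKM (SD, n = 3 each), with a log2 change of 1.49 and a standard error of 0.34 (limma, adjusted p = 0.00649). Without replicate 2 at 25 mM the adjusted p was 0.0556.

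For H3K27Ac the Gngt1 promoter held 4.69 and 7.95 RPKM at 5 mM and 18.7 and 16.6 RPKM at 25 mM. These ranges did not overlap, and the replicates at 25 mM lay close together. The mean rose 2.80-fold with a log2 change of 1.45 and a standard error of 0.45 (limma, adjusted p = 0.0327). That change was larger than at 68.9% of 14562 genes taken with 1 promoter peak each, against 99.5% for Gnat1. The replicate block, a fit that removes differences between replicate numbers, gave an adjusted p of 0.101 (limma). Scaled to reads in peaks, the log2 change at Gngt1 was 0.22 for H3K18La (limma, adjusted p = 0.869) and 0.24 for H3K27Ac (limma, adjusted p = 0.619). Centring on the median peak ended both calls, with 0.86 for H3K18La (limma, adjusted p = 0.179) and 1.02 for H3K27Ac (limma, adjusted p = 0.0875).

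Gnb1, encoding the β-subunit, carried signal at a pair of promoter peaks. The peak at its 5′ start was 714 bp long (chr4:155491104-155491817) and held 220 bases of exon. The internal promoter peak was 1705 bp long (chr4:155521715-155523419) and lay at the start of a shorter annotated transcript, with its centre 31.2 kb downstream, with 197 bases of exon. The latter had the higher mean over all libraries, with 9.81 against 7.37 RPKM, and stands for the gene in comparisons of promoters.

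At the Gnb1 5′ start the H3K18La level was 0.664, 0.811 and 1.03 RPKM at 5 mM and 9.98, 2.41 and 2.83 RPKM at 25 mM. The groups did not overlap, but replicate 1 at 25 mM was 3.80 times the mean of replicates 2 and 3. The log2 change was 1.81 with a standard error of 0.51 (limma, adjusted p = 0.0227), on 1 to 3 reads per library at 5 mM. The ratio of pooled levels, 5.19, had a 95% exact counting interval of 1.97 to 17.3. Without replicate 1 at either glucose level the log2 change was 1.14 (limma, adjusted p = 0.173). The replicate block narrowly ended the H3K18La call (limma, adjusted p = 0.0502).

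The H3K27Ac level at the Gnb1 5′ start was 2.27 and 8.12 RPKM at 5 mM and 35.4 and 10.2 RPKM at 25 mM. The ranges came close, since replicate 2 at 5 mM lay near replicate 2 at 25 mM. The log2 change was 2.00 with a standard error of 0.59 (limma, adjusted p = 0.0311), the widest error among the members' promoter peaks. Without replicate 1 at 25 mM it was 1.13 (limma, adjusted p = 0.567). Centring on the median peak ended the calls at the 5′ start in both marks, with 1.18 for H3K18La (limma, adjusted p = 0.216) and 1.57 for H3K27Ac (limma, adjusted p = 0.0968).

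At the Gnb1 internal start the H3K18La level was 1.39, 0.679 and 1.73 RPKM at 5 mM and 8.95, 2.60 and 3.56 RPKM at 25 mM. All 25 mM libraries exceeded all 5 mM libraries, and replicate 1 at 25 mM was again the highest. The log2 change was 1.53 with a standard error of 0.48 (limma, adjusted p = 0.0369). The H3K27Ac level was 4.75 and 9.44 RPKM at 5 mM and 40.7 and 24.3 RPKM at 25 mM, separate ranges with a log2 change of 2.15 and a standard error of 0.48 (limma, adjusted p = 0.0141). Centring on the median peak ended the H3K18La call at the internal start, with 0.90 (limma, adjusted p = 0.326), and left 1.71 for H3K27Ac (limma, adjusted p = 0.0260). Dropping any of 4 of the 6 H3K18La libraries, namely replicates 1 and 2 at 5 mM and 1 and 3 at 25 mM, ended the H3K18La call at this start, with log2 changes from 1.06 to 1.67 (limma, adjusted p from 0.0581 to 0.177). At the 5′ start, dropping replicate 1 or 2 at 5 mM or replicate 1 at 25 mM did so, with log2 changes from 1.23 to 1.81 (limma, adjusted p from 0.0535 to 0.125).

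The other 11 Gnb1 peaks had their centres from -9.24 kb to 57.0 kb relative to the 5′ start, 3 in the upstream intergenic stretch and 8 in introns. In H3K18La 7 of the 11 rose and 4 did not pass, and in H3K27Ac 9 rose and 2 did not pass, against 20.6% and 16.4% of all peaks that rose. Their median log2 change was 1.93 for H3K18La and 1.87 for H3K27Ac, against 0.76 and 0.58 over all peaks. No Gnb1 peak fell in either mark.

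The highest of these was the first-intron peak 3.63 kb downstream of the start (chr4:155494744-155495241). Its H3K18La level was 0, 0.775 and 2.96 RPKM at 5 mM and 14.3, 2.96 and 3.39 RPKM at 25 mM. The 5 mM libraries held 0, 2 and 2 reads, the groups only just separated, and the log2 change was 2.17 with a standard error of 0.68 (limma, adjusted p = 0.0375). Its H3K27Ac level was 1.86 and 6.47 RPKM at 5 mM and 46.3 and 18.1 RPKM at 25 mM. That 7.74-fold ratio gave the largest H3K27Ac change of the members, a log2 change of 2.87 with a standard error of 0.54 (limma, adjusted p = 0.0115), above 99.96% of all peaks. Without replicate 1 at 25 mM the H3K27Ac change was 2.20 (limma, adjusted p = 0.517). Only without replicate 3 at 5 mM did the H3K18La call hold when 1 library was left out, and without replicate 1 at either glucose level the log2 change was 0.81 (limma, adjusted p = 0.407). The replicate block also ended the H3K18La call (limma, adjusted p = 0.107).

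The upstream peak at -7.88 kb (chr4:155482893-155484074) lay in the intergenic stretch before the gene. Its H3K18La level was 2.01, 1.14 and 0.623 RPKM at 5 mM and 9.90, 6.87 and 3.42 RPKM at 25 mM. Its H3K27Ac level was 3.13 and 5.99 RPKM at 5 mM and at least 16.6 RPKM in both 25 mM libraries. The groups were separate in both marks, with log2 changes of 2.01 for H3K18La (SE 0.45, limma, adjusted p = 0.00644) and 1.87 for H3K27Ac (SE 0.45, limma, adjusted p = 0.0156). Without replicate 1 at 25 mM the H3K18La change was 1.69 (limma, adjusted p = 0.0516).

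The second-intron peak 32.9 kb downstream of the 5′ start (chr4:155523791-155524660) lay just behind the internal promoter peak. Its H3K18La level was 1.09, 0.444 and 0.846 RPKM at 5 mM and 4.68, 3.39 and 3.49 RPKM at 25 mM. Its H3K27Ac level was 3.99 and 5.55 RPKM at 5 mM and 24.4 and 16.7 RPKM at 25 mM. The groups were again separate, with log2 changes of 1.77 for H3K18La (SE 0.44, limma, adjusted p = 0.0107) and 1.99 for H3K27Ac (SE 0.44, limma, adjusted p = 0.0140). The H3K18La call was lost without replicate 1 at 25 mM (limma, adjusted p = 0.0521). Centring on the median peak ended the H3K18La calls at the peaks at 3.63, -7.88 and 32.9 kb (limma, adjusted p = 0.237, 0.0962 and 0.157) and none of their H3K27Ac calls.

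Of the 4 Gnb1 peaks that did not pass for H3K18La, the most distant upstream peak, at -9.24 kb, had 2.63, 0.357 and 4.09 RPKM at 5 mM and 2.83, 5.92 and 5.62 RPKM at 25 mM, and its groups overlapped. The first-intron peak at 13.5 kb had 0.919, 0.748 and 1.43 RPKM at 5 mM and 1.63 to 3.94 RPKM at 25 mM, groups that were separate, and a log2 change of 1.11 (limma, adjusted p = 0.114). At the first-intron peak at 23.6 kb and the seventh-intron peak at 57.0 kb, no H3K18La library held more than 1 read, so no fold is given. The last of these had 0 reads in all 25 mM libraries, which allows up to 3 reads in each, while its H3K27Ac level was 1.38 and 1.44 RPKM at 5 mM and 3.32 and 4.22 RPKM at 25 mM. Both peaks had an H3K27Ac change that did not pass, 1.04 (limma, adjusted p = 0.0909) and 1.15 (limma, adjusted p = 0.0547).

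Replicate 1 at 25 mM stood out most around the 5′ start of Gnb1. Relative to the mean of the other replicates, its H3K18La level was 3.80-fold at the 5′ promoter peak, 3.14-fold, 4.51-fold and 3.63-fold at the next 3 peaks downstream, and 0.490-fold to 1.92-fold at the 3 upstream peaks. Its H3K27Ac level was 3.48-fold, 2.76-fold, 2.56-fold and 1.74-fold at the same promoter and first-intron peaks and 1.07-fold to 1.12-fold upstream. The internal promoter peak had ratios of 2.91 and 1.67, the peak at 46.6 kb 1.86 and 1.73, the Gnat1 peak 2.70 and 1.64 and the Gngt1 peak 0.834 and 1.12. The median ratio over all promoter peaks was 1.33 for H3K18La and 1.36 for H3K27Ac. Whether the libraries numbered 1 in both marks shared material is not given.

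**Figure D2:**
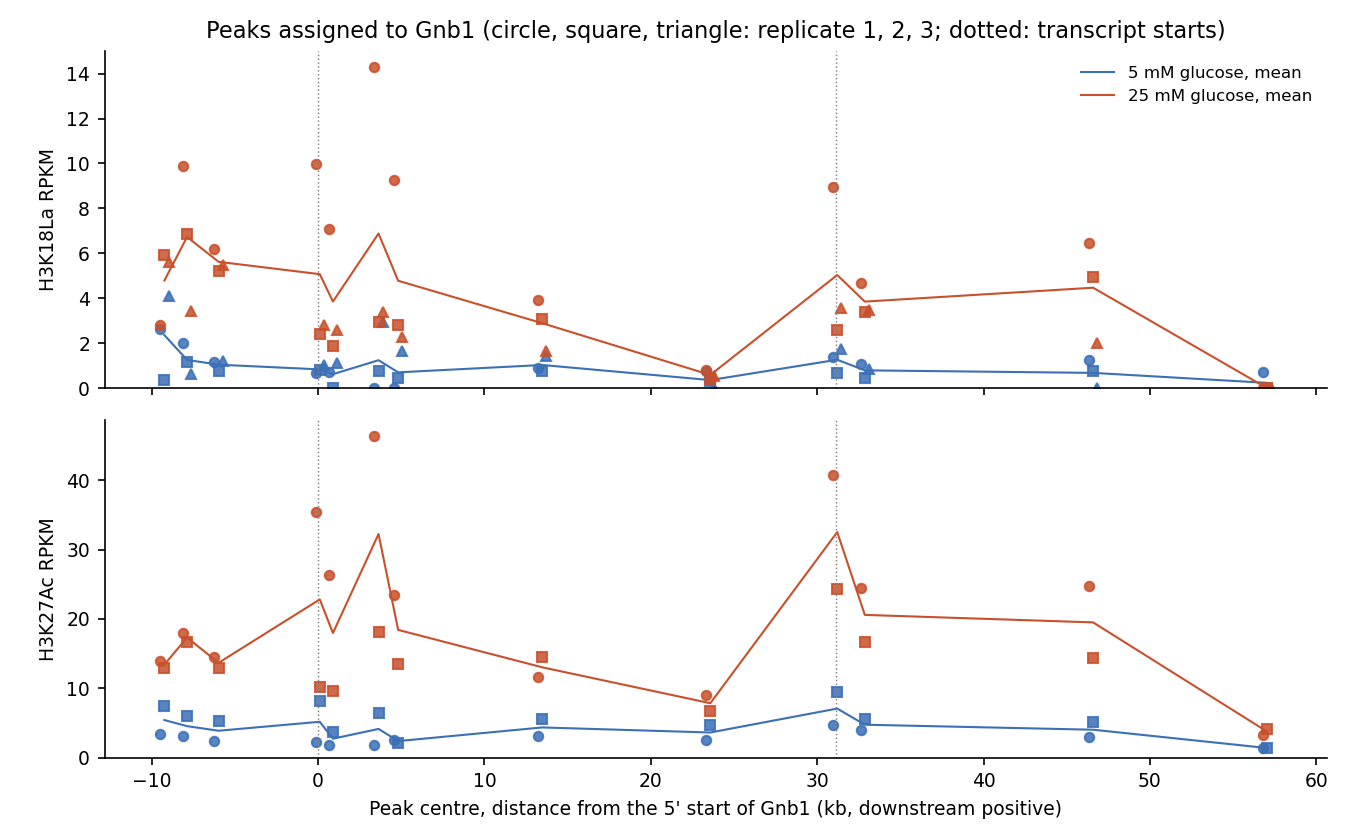
RPKM at the 13 Gnb1 peaks in each library against the distance of the peak centre from the 5′ start (kb), H3K18La above and H3K27Ac below, blue at 5 mM and orange at 25 mM, with lines joining group means and dotted lines at the transcript starts. For H3K27Ac the 25 mM means are highest at 3.63 kb and at the internal start, with replicate 1 (circles) at 46.3 and 40.7 RPKM, whereas for H3K18La the upstream peak at -7.88 kb is about as high, and both marks are lowest at 57.0 kb.

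Across all 15 member peaks, 11 rose in H3K18La and 13 in H3K27Ac, and none fell. Over all 108253 peaks, 20.6% rose in H3K18La and 16.4% in H3K27Ac. The 25 mM libraries lay above all 5 mM libraries at 12 of the 15 members for H3K18La and at 15 of 15 for H3K27Ac, against 36.6% and 53.0% of all peaks. The median log2 change of the members was 1.81 for H3K18La and 1.99 for H3K27Ac, against medians of 0.76 and 0.58 over all peaks. The H3K18La median includes the fitted values of the peaks at 23.6 and 57.0 kb, whose reads were too few for a fold. The members are not independent of each other, since 13 of them belong to Gnb1.

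Over the 4 promoter peaks alone, 4 of 4 rose in both marks. Of 14562 genes with 1 promoter peak each, 20.1% rose in H3K18La and 42.5% in H3K27Ac, so that a rise in acetylation at a promoter was common in this table. With each library left out in turn, limma called no H3K27Ac peak of the table, with 5836 to 36319 peaks at an unadjusted p under 0.05. A library then stood alone at 1 glucose level and was assumed to vary like the others. With all libraries and voom weights 21907 peaks passed. For H3K18La 3 to 11 of the members were called with 1 library left out. Left out singly, the H3K18La libraries never ended the call at Gnat1.

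**Figure D3:**
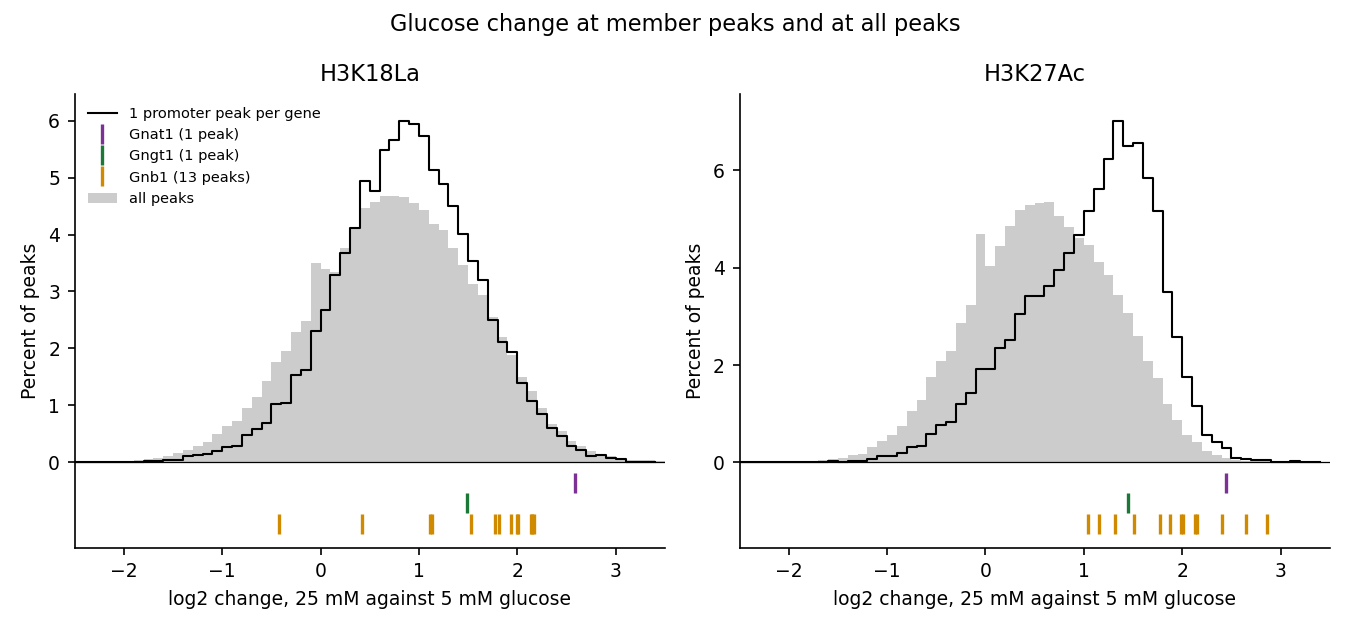
Distribution of log2 changes between 25 mM and 5 mM glucose over all peaks (grey bars, percent of peaks per bin) and over 1 promoter peak per gene (black line), with a tick for each member peak below. The Gnat1 ticks lie at 2.59 for H3K18La and 2.44 for H3K27Ac near the right edge, the Gngt1 ticks at 1.49 and 1.45, and the Gnb1 ticks spread up to 2.17 for H3K18La, the lowest pair being the fitted values of peaks with 3 or fewer reads per group, and from 1.04 to 2.87 for H3K27Ac.

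Since the median of all peaks moved with glucose, the 3 subunits were also compared with each other inside each library. There library scaling cancels apart from the 0.5 RPKM added. Background reads within peaks do not cancel, and their share was not measured. The log2 ratio of Gnat1 to Gngt1 in H3K27Ac was 0.17 and 0.18 at 5 mM and 1.43 and 0.89 at 25 mM. In H3K18La it was -0.98, -0.56 and -1.87 at 5 mM and 1.03, -0.52 and -0.62 at 25 mM. The Gnat1 promoter thus stood below the Gngt1 promoter in all 5 mM H3K18La libraries and above it in all H3K27Ac libraries. The difference between glucose levels was 0.99 for H3K27Ac, which is 2 against 2 libraries with a smallest possible p of 0.333 (exact two-sided permutation p = 0.333), and 1.10 for H3K18La, whose groups overlapped (exact two-sided permutation p = 0.200). Adjusted over the 6 ratios tested, both were 0.400 in the exact permutation test.

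The log2 ratio of Gnat1 to Gnb1 in H3K18La was -0.66, 0.38 and -1.37 at 5 mM and 0.48, 1.02 and 0.03 at 25 mM, groups that overlapped (exact permutation p = 0.200). In H3K27Ac it was 0.15 and -0.06 against 0.33 and 0.36. These values use the internal promoter peak of Gnb1. With its 5′ promoter peak, a choice outside the plan, the H3K18La groups were separate, with a difference of 0.77 against 1.06 (exact permutation p = 0.1). The H3K27Ac difference was then 0.44 against 0.30 (exact permutation p = 0.667). The log2 ratio of Gngt1 to Gnb1 in H3K27Ac was -0.02 and -0.24 at 5 mM and -1.10 and -0.53 at 25 mM, and in H3K18La it was 0.32, 0.94 and 0.50 at 5 mM and -0.54, 1.54 and 0.64 at 25 mM. The exact permutation test cannot go below 0.1 for 3 against 3 libraries or 0.333 for 2 against 2, so that it could not have passed 0.05 for either mark, and these ratios are given as values.

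Summed over all peaks of a gene and divided by their joined length, the H3K18La level at 5 mM and 25 mM was 0.698 ± 0.339 and 7.37 ± 4.74 RPKM at Gnat1, 0.969 ± 0.294 and 4.39 ± 1.97 RPKM at Gnb1 and 2.09 ± 0.484 and 6.78 ± 1.51 RPKM at Gngt1 (SD, n = 3 each). In each gene all 25 mM libraries were above all 5 mM libraries, and the exact two-sided permutation p of 0.1 was the smallest that 3 against 3 allow (0.2 after adjustment over 6 tests). H3K27Ac at Gnb1 was 3.02 and 5.88 RPKM at 5 mM and 23.2 and 14.6 RPKM at 25 mM, a 4.25-fold ratio of means. At 5 mM the H3K18La order was Gngt1, Gnb1, Gnat1, and the ranges of Gnb1 and Gnat1 overlapped. At 25 mM the means of Gnat1 and Gngt1 differed by less than their spread.

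Of the reads over Gnb1 peaks, the share in its promoter peaks was 21.4%, 23.7% and 27.8% in the H3K18La libraries at 5 mM and 28.9%, 14.8% and 23.5% at 25 mM. In the H3K27Ac libraries it was 27.6% and 32.0% at 5 mM and 35.1% and 28.6% at 25 mM. These groups overlapped in both marks, with differences of -1.87 percentage points for H3K18La (exact permutation p = 0.800) and 2.04 for H3K27Ac (exact permutation p = 0.667). With smallest possible values of 0.1 and 0.333, these tests could not have passed 0.05 and say nothing on a shift of signal between the promoters and the rest of Gnb1.

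The glucose change was compared between the marks as an interaction over the 10 libraries, H3K18La change minus H3K27Ac change. It was 0.14 (SE 0.67) at Gnat1, 0.03 (SE 0.52) at Gngt1, -0.19 (SE 0.88) at the Gnb1 5′ start and -0.62 (SE 0.70) at the Gnb1 internal start, with adjusted p from 0.974 to 0.999 in limma. The interaction was positive at 5 of 15 members, and the smallest unadjusted p among them was 0.0690, at the Gnb1 peak at 57.0 kb. Over the whole table limma called 0 peaks, with 4988 peaks at an unadjusted p under 0.05, and limma with voom weights on the recovered reads also called 0, with 7150. With standard errors of 0.52 to 0.88 at the promoters, a difference between the marks was not detectable, which does not show that they moved alike.

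**Figure D4:**
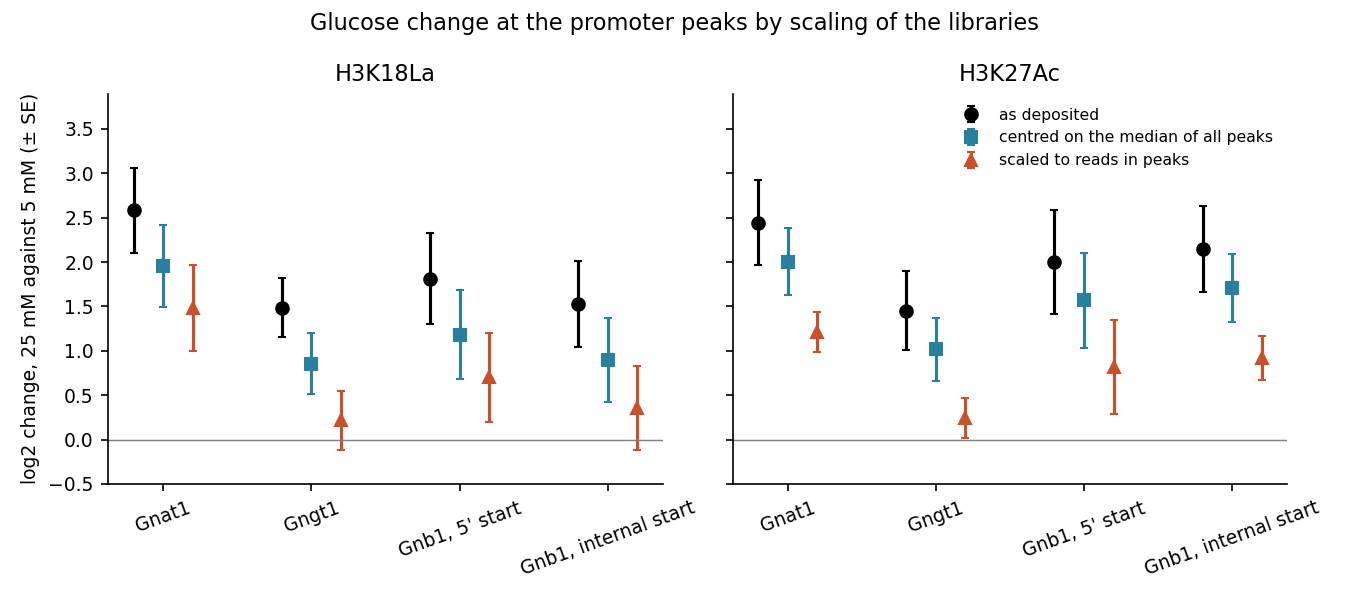
Log2 change between 25 mM and 5 mM glucose with its standard error at the 4 promoter peaks, from the values as deposited (black), after centring on the median of all peaks (blue) and after scaling to reads in peaks (orange). All estimates are above 0, Gnat1 keeps the largest at each scaling, and Gngt1 falls to 0.22 for H3K18La and 0.24 for H3K27Ac after scaling to reads in peaks.

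Peaks of other genes near Gnat1 rose as well. Within 50 kb of the Gnat1 peak lay 22 further peaks assigned to other genes, of which 18 rose in H3K18La and 17 in H3K27Ac, with median log2 changes of 2.03 and 1.53. Over all peaks 20.6% rose in H3K18La and 16.4% in H3K27Ac. Of the promoter peaks of Slc38a3, a glutamine transporter gene, the one with the largest change had log2 changes of 2.52 (limma, adjusted p = 0.000204) and 2.24 (limma, adjusted p = 0.0145), close to those at Gnat1. Around Gngt1, 12 of 16 further peaks rose in H3K18La and 5 in H3K27Ac, most of them assigned to Tfpi2, an inhibitor of serine proteases. Around Gnb1, 1 of 5 rose in H3K18La and 2 in H3K27Ac. That 1 peak lay inside the first intron of Gnb1 but was assigned to the pseudogene Gm13171, so it was not counted as a member, and its H3K18La change was 2.18 (SE 0.55, limma, adjusted p = 0.0119). Downstream, the promoter peaks of Nadk, a NAD kinase gene, had H3K18La changes of 0.17 and 0.56, which did not pass, while both passed for H3K27Ac (limma, adjusted p = 0.0496 and 0.0366).

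Genes that act with rod transducin were taken as a list of 18, of which all but Rgs9bp had a promoter peak. In both marks 17 of 17 rose, against 20.1% of all genes with a promoter peak in H3K18La and 42.5% in H3K27Ac. The medians of the list were 2.14 for H3K18La and 2.09 for H3K27Ac, against 0.88 and 1.16 over 1 promoter peak per gene. Among the effectors of the α-subunit, the phosphodiesterase genes Pde6a, Pde6b and Pde6g had H3K18La changes of 2.14, 2.29 and 2.21 and H3K27Ac changes of 2.08, 2.09 and 2.11. Among the genes that switch transducin off, Rgs9, encoding its GTPase activator, had 1.93 and 2.29, and Gnb5, encoding the β-subunit bound to RGS9, had 2.03 and 2.31. Unc119, whose product carries the transducin α-subunit to the outer segment, had 2.69 and 2.65, and Pdc, encoding the βγ-binding protein phosducin, had 2.50 and 2.76. The channel genes Cnga1 and Cngb1 had 2.45 and 2.01 in H3K18La. Scaled to reads in peaks, all 17 kept a positive change in both marks, with medians of 0.94 and 0.84, while the median over all genes was -0.06 and 0.03.

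Of these partners, Guca1b and Unc119 had a larger H3K18La change than Gnat1, and Pdc, Guca1a and Unc119 a larger H3K27Ac change. Gngt1 lay below all 17 in both marks. The list was chosen with results of these data known, so the count describes and does not test it.

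Among the other G protein subunits the picture was mixed. Of 25 genes, 22 had a promoter peak, with Gnat3, Gng3 and Gng5 the exceptions. Of the 22, 7 rose in H3K18La and 8 in H3K27Ac while none fell, against the 20.1% and 42.5% of all genes with a promoter peak. A difference from these shares was not tested. Gnb3, encoding the β-subunit of cones and ON bipolar cells, rose in both marks, with 2.26 (limma, adjusted p = 0.000447) and 2.79 (limma, adjusted p = 0.00877). Gng13, encoding a γ-subunit of ON bipolar cells, had 1.94 and 2.50, and Gnaz, encoding an inhibitory α-subunit of neurons, 1.36 and 1.89, all past the threshold. The cone α- and γ-subunit genes passed for H3K27Ac and not for H3K18La, but the interaction between glucose and mark passed at no peak of the table, theirs included. Gnat2, the cone α-subunit gene, had 1.07 in H3K18La (limma, adjusted p = 0.108) and 1.36 in H3K27Ac (limma, adjusted p = 0.0299), and Gngt2, the cone γ-subunit gene, had 0.50 (limma, adjusted p = 0.542) and 1.65 (limma, adjusted p = 0.0185). The medians of the 22 genes, 1.11 and 1.10, fell to -0.02 in both marks after scaling to reads in peaks, with 11 genes higher and 11 lower in each.

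**Figure D5:**
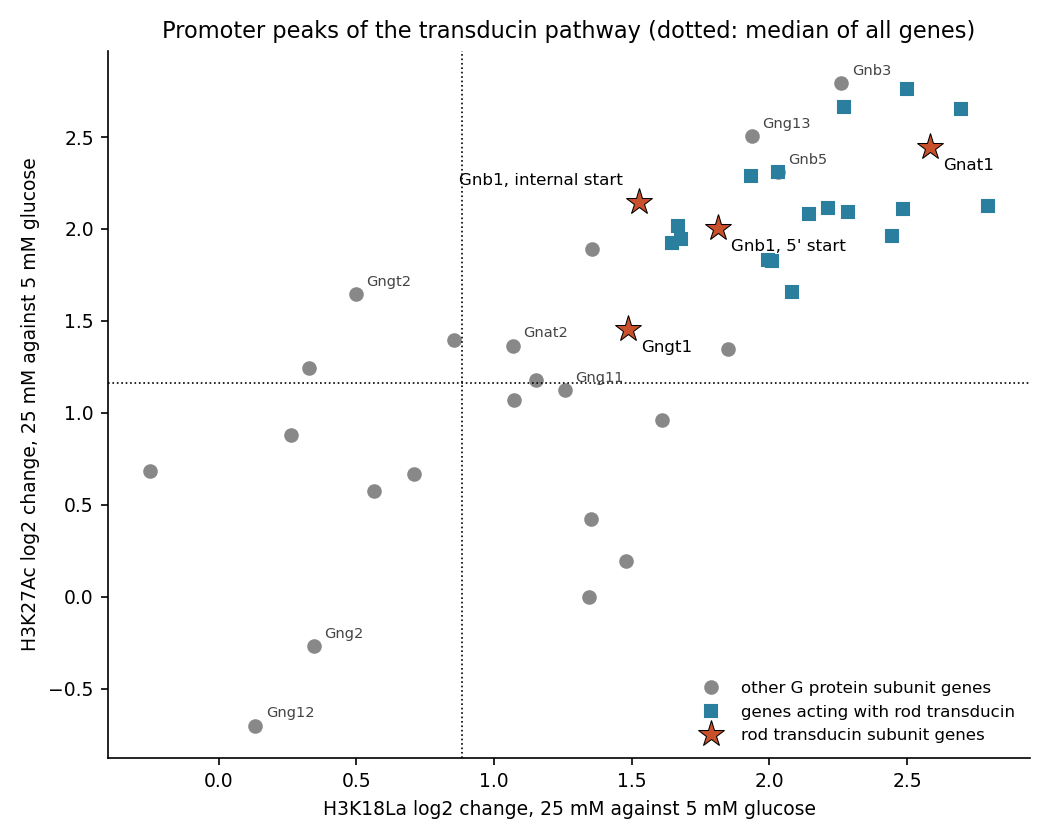
Log2 change between 25 mM and 5 mM glucose at the promoter peak of each gene, H3K18La on the x axis and H3K27Ac on the y axis, for the members (stars), the 17 genes acting with rod transducin (squares) and 22 other G protein subunit genes (circles), with dotted lines at the medians over all genes. Gnat1 at 2.59 and 2.44 lies among the squares, the Gnb1 starts lie at their edge, and Gngt1 at 1.49 and 1.45 lies below them, whereas Gng2 and Gng12 have H3K27Ac changes below 0. Gnb5 is in both lists and is drawn as a square over a circle.

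The promoters whose profile over the 10 libraries was most like that of each member were found by the root mean square difference of centred log2 levels among 12656 promoter peaks with a mean of at least 1 RPKM. For Gnat1 they were Arl6 (0.236), Unc119 (0.251) and Zc3h14 (0.267), against a median difference of 1.05. For Gnb1 they were Vdac2 (0.196), Selenot (0.217) and Ddx39b (0.220), and for Gngt1 Gm48505 (0.172), Csk (0.173) and Gm39456 (0.173). The members were not each other's nearest promoters, since Gnb1 ranked 907 for Gnat1 with a difference of 0.629 and Gngt1 ranked 5012 with 0.965. The points share libraries, and depth and reads in peaks differ between them.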

How the data were processed

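CUT&Tag of H3K18La and H3K27Ac was analysed in 10 libraries, grouped by the mark and glucose level in the sample titles. The protocol text in the labels, shared by all libraries, names antibodies against H3K18La and H3K9me3 and an MNase fusion, and no H3K27Ac antibody, which conflicts with the titles, the column names and the study's methods (H3K27Ac, transposase). The authors aligned reads to GRCm38 with nf-core/cutandrun, called peaks with MACS, annotated them with ChIPseeker 1.34.1, counted reads with csaw and deposited RPKM values per peak. A second deposited table holds the authors' own fold changes and p-values and was not used. Every deposited RPKM value corresponded to a whole number of reads (100% of values within 0.02 reads), so read numbers and denominators could be recovered.

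Each mark was fitted in limma 3.58.1 (R 4.3.3; lmFit, eBayes with trend and robust moderation) on log2(RPKM + 0.5) over all 108253 peaks, with Benjamini-Hochberg adjustment at 0.05. This replaced the authors' count model because the deposited unit is RPKM, although the recovered reads would have allowed a count model. The interaction was fitted over 10 libraries, and single values were compared by exact two-sided permutation of the glucose labels. The authors' transcripts had the same coordinates in GENCODE M21 for 99.7% of 32058 shared transcripts. Counting intervals are 95% and exact, and cover counting error only, as reads carry no molecular identifiers.

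Named peaks were all promoter peaks and, for Gnb1, the 3 others with the highest mean. The most alike promoters were the 3 with the smallest difference. The members, lists and rules were chosen with earlier results of these data known. The lists were 25 other G protein subunits, 18 partners of rod transducin and 5 markers each of 9 retinal and accompanying cell types. Alternatives were pseudocounts of 0.1 and 1, a mean RPKM of at least 1, moderation without the robust option, other scalings, a replicate block, a threshold of 0.01, voom weights and leaving out libraries.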

Additional observations from a re-analysis of the deposited data

How the results depend on the processing

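Scaling to reads in peaks left 0 calls over all peaks and 0 members in either mark. Centring on the median peak gave 5434 H3K18La calls with 1 member and 5533 H3K27Ac calls with 9, against 22474 with 11 and 17988 with 13. Voom gave 27956 and 21907 calls. For H3K18La, a threshold of 0.01 gave 11775 with 4 members, moderation without the robust option left 5 members, and leaving out replicate 1 at either level, chosen after seeing the data, gave 11815 with 4. For H3K27Ac, a pseudocount of 0.1 and moderation without the robust option each left 0 calls and 0 members (33585 and 31013 peaks at an unadjusted p under 0.05), and a threshold of 0.01 left 86 with 1. The causes were not tested. Without 1 library the H3K18La calls ranged from 12138 to 21212 and the members from 3 to 11, and the H3K27Ac calls and members were 0 throughout. Within marks, deviations of libraries of the same number had correlations from -0.004 to 0.024. With medians of 1 to 5 reads per peak in the H3K18La libraries, this check cannot exclude pairing. Between marks the correlations were -0.010 at 5 mM and 0.110 at 25 mM, and whether libraries of the same number shared material is not given. The replicate block gave 18471 H3K18La calls with 8 members and 8518 H3K27Ac calls with 10.

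The interaction at single peaks, which never passed, changed sign at the Gnb1 5′ start with a pseudocount of 0.1 (0.0703) and without replicate 1 at 25 mM in both marks (0.10), and without 1 library ranged from -1.07 to 0.68. At Gngt1 it was -0.0587 with a pseudocount of 1, -0.16 after centring and -0.0077 scaled to reads in peaks, and ranged from -0.32 to 0.39. At Gnat1 it was -0.19 with a pseudocount of 1 and -0.0520 after centring, and ranged from -0.32 to 0.52. At the Gnb1 peak at -7.88 kb it was -0.0408 with a pseudocount of 1, -0.0610 after centring and, without replicate 1 at 25 mM in both marks, -0.13, with a range from -0.29 to 0.55. At 3.63 kb it was 0.0353 with a pseudocount of 0.1 and ranged from -1.48 to 0.0821, and at 32.9 kb it was 0.12 with that pseudocount and 0.0751 with voom, and ranged from -0.49 to 0.0471.

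The Gngt1 to Gnb1 difference in H3K18La ranged from -0.54 to 0.51 without 1 library. The Gnb1 promoter share difference ranged from -5.14 to 1.94 for H3K18La and from -1.20 to 5.29 for H3K27Ac without 1 library. Set against the 3 upstream peaks, a choice made after seeing the data, the share of the promoter peak at the 5′ start and the peak beside it differed by 4.08 percentage points for H3K18La and 7.76 for H3K27Ac, against -1.87 and 2.04. The planned quasi-likelihood test on recovered reads was not run, although those reads would have allowed it, and voom on the same reads took its place. Low H3K18La depth, 1 to 11 reads per library at Gnat1 at 5 mM, limits the fold changes there.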
